A study of Mus musculus with 14 samples.

Results

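The superoxide dismutases and peroxidases, with 2 genes of redox stress, were read in lines of the mouse pancreatic beta-cell line MIN6 whose Sirt1, an NAD-dependent deacetylase, had been raised or lowered. All probes of the array whose single gene symbol was Sod1, Sod2, Sod3, Cat, Gpx1, Gpx2, Gpx3, Gpx4, Txnip or Hmox1 were taken, which gave 11 probes for 10 genes out of 23232 probes. Cat had 2 probes, numbered 15067 and 17969, and each other gene had 1. The genes were grouped by function, but the list was selected on knowledge of measured log2 ratios in these lines, foremost those of Sod3, whose values are therefore a description with no test. Probes that carried a percent ratio shared by many probes were marked.

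Sir2OE1 and Sir2OE2 were made by infecting MIN6 with a retrovirus that carried the mouse Sirt1 gene and resistance to G418. Their reference was pooled RNA of Neo1 and Neo2, lines infected with the empty virus. Sir2KD1 and Sir2KD2 were made by transfecting vectors for small interfering RNAs against Sirt1 with a resistance plasmid, and their reference was mU6pro, a line with the empty vector. All lines came from cells at passage 24, carry G418 resistance and were kept for 4 days in 5 mM glucose. Sir2OE1 and Sir2OE2 were selected in 280 micrograms/ml of G418 but Sir2KD1 and Sir2KD2 in 400, so the dose differed between the kinds of line. Whether a line is a clone or a pool is not said in the labels, and a property of one established line and an effect of its Sirt1 level cannot be told apart. Sir2OE1 and Sir2KD1 had 3 arrays each and Sir2OE2 and Sir2KD2 had 4 each, and the line's RNA was in channel 2 on some arrays and in channel 1 on others. Ratios hold no absolute level, so the beta-cell label could not be checked against marker levels.

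Superoxide dismutases turn superoxide into hydrogen peroxide: Sod1 acts in the cytosol with copper and zinc, Sod2 in mitochondria with manganese, and Sod3 is secreted and binds to the extracellular matrix. Catalase (Cat) and the glutathione peroxidases then remove peroxide, the latter at the expense of glutathione and, for Gpx1 to Gpx4 of the mouse, with selenocysteine in the active site. Beta cells are known for low catalase and glutathione peroxidase. Txnip binds and inhibits thioredoxin and is induced by glucose in beta cells, and Hmox1 is the inducible haem oxygenase.

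Of the 10 genes, 8 had an entry in the RefSeq promoter table (GRCm38.p6). The 250 bases upstream of the start are shown for Gpx2 (chr12:76795555-76795804, minus strand) and Sod2 (chr17:13007589-13007838, plus strand), the genes besides Sod3 that passed the test in a line. Capitals mark the GC box (GGGCGG) and the CCAAT box (CCAAT), on either strand.
Gpx2: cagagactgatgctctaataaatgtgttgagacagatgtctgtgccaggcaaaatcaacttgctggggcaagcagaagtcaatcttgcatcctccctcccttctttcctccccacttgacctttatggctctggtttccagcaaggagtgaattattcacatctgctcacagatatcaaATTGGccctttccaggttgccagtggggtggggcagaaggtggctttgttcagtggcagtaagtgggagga
Sod2: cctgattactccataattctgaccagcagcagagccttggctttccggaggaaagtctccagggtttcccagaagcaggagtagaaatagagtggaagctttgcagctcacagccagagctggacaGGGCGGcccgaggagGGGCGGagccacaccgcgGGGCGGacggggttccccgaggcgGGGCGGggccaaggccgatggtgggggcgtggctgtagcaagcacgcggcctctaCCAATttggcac
The Gpx2 window held 0 GC boxes and 1 CCAAT box, and 49.2% of its bases were G or C. The Sod2 window held 4 GC boxes and 1 CCAAT box, with 63.6% G or C. Over 32851 windows of the same length, 32.7% held a GC box and 33.8% a CCAAT box, and the median share of G and C was 52.4%. Of the other members, Sod1 also had 4 GC boxes and the Cat window had 4 CCAAT boxes. The core of the antioxidant response element, TGACNNNGC, was matched in the Sod1 window alone among the members, and in 10.2% of all windows. The forkhead core TGTTTAC was matched in the Txnip window alone among the members, and in 3.17% of all windows, while the E-box CACGTG was in none of the members' windows and in 6.02% of all. These matches are letters in a window and do not show that a factor binds there.

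Sod3 stood apart from the other 9 genes: its ratio to control was between 4.84-fold and 17.6-fold in the 4 lines, always on the same side. Gpx2, the glutathione peroxidase best known from gut epithelium, was far from control in Sir2OE1 (3.78-fold) and Sir2KD2 (4.77-fold) and did not pass the test in the other line of either kind. Sod2 passed the test in Sir2KD1 alone, at 1.44-fold on the side opposite to Sod3. Sod1, Cat, Gpx1, Gpx3, Gpx4, Txnip and Hmox1 did not pass in any line. It is not settled which side stands for more transcript in the modified line, since no source used here states which channel the deposited ratio has on top. Plus and minus name the sides of a log2 ratio after the sign of arrays with the line in channel 1 was turned. Reversing the overall sign would make every plus below a minus, and the same sides in overexpressing and knockdown lines further assume that both kinds have the same channel on top.

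The Sod3 ratios can be shown array by array, since undoing the centring of the deposited values gave whole-number percents. In Sir2OE2 the channel ratio of Sod3 was 1842% and 1547% on slides 1 and 2, with the line in channel 2, and 5% and 6% on slides 3 and 4, with the line in channel 1. In Sir2OE1 it was 392% and 606% on slides 1 and 2 and 16% on slide 3, the array with the line in channel 1. In Sir2KD1 it was 820% on slide 1, with the line in channel 2, and 19% and 16% on slides 2 and 3. In Sir2KD2 it was 520% and 634% on slides 1 and 2 and 25% and 24% on slides 3 and 4. The ratio was thus above 100% on all 7 arrays with the line in channel 2 and below 100% on all 7 with it in channel 1, and the ranges of these sets did not overlap. Small percents are coarse: a value of 5% is known only to within 0.5 percentage points. Read without turning, the 4 arrays of Sir2OE2 would average to -0.06 on the log2 scale. Inversion beyond 1 on the log2 scale, a lower limit than the ratios of Sod3, was counted over all probes. Nothing is read from it for Sod3, which was chosen on its ratios. Among all probes with complete values, 25 on overexpression arrays and 35 on knockdown arrays lay beyond 1 on the log2 scale on every array and changed side with the channel, while 52 and 43 lay that far on one side whatever the channel.

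**Figure D1:**
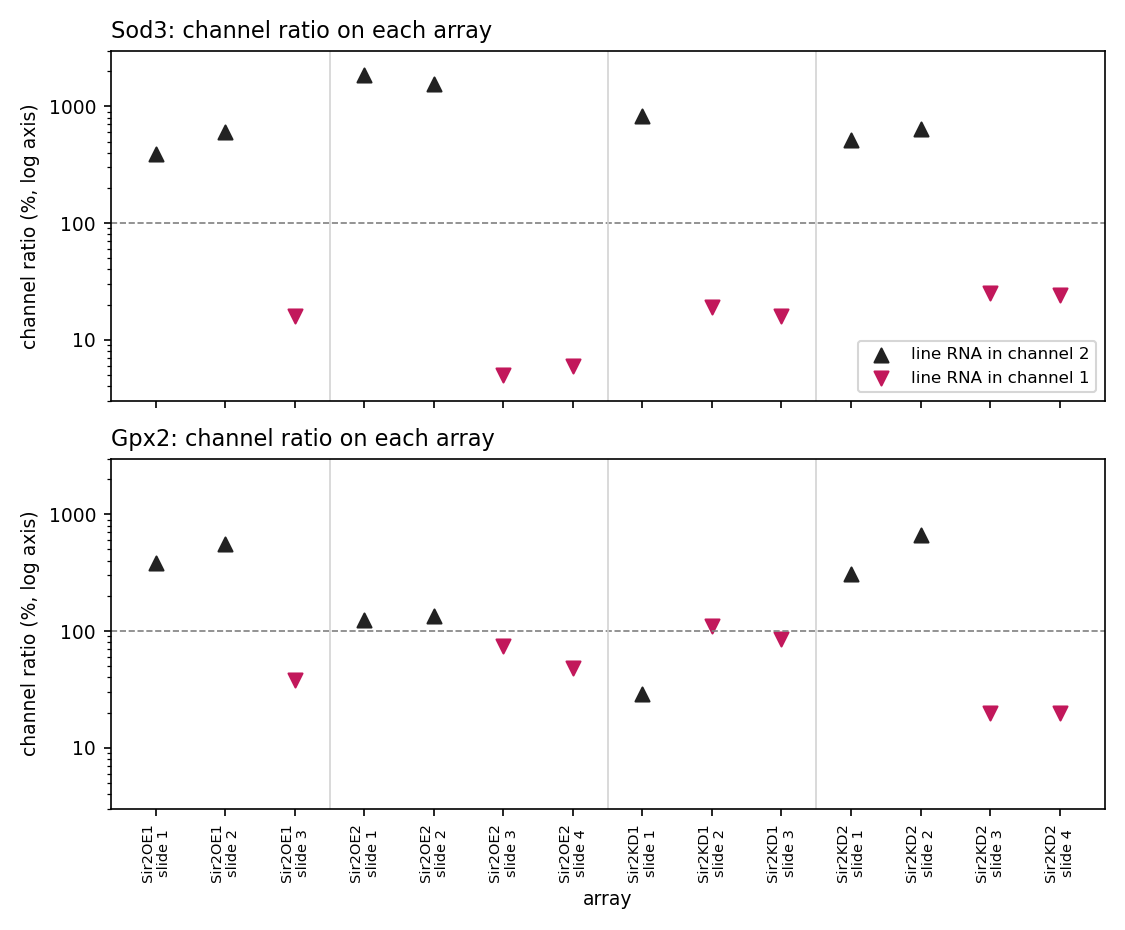
Channel ratio in percent (log axis) of Sod3 and Gpx2 on each of the 14 arrays, with triangles pointing up where the line's RNA was in channel 2 and down where it was in channel 1, and a dashed line at 100%. Sod3 lies between 392% and 1842% or between 5% and 25% according to the channel, while Gpx2 inverts strongly in Sir2OE1 and Sir2KD2, weakly in Sir2OE2 and not in Sir2KD1.

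On the turned log2 scale, with a channel term for each kind of line, Sir2OE1 had a Sod3 ratio of 2.44 ± 0.15 (SE, n = 3 arrays) and Sir2OE2 one of 4.13 ± 0.12 (SE, n = 4). Sir2KD1 had 2.78 ± 0.15 (SE, n = 3) and Sir2KD2 had 2.28 ± 0.12 (SE, n = 4). In each line every array was on the plus side, and the arrays of Sir2OE2 (3.95 to 4.31) did not overlap those of Sir2OE1 (2.08 to 2.71). The Sir2OE2 value was 1.69 above that of Sir2OE1, with a 95% interval of 1.27 to 2.12, or 3.24-fold. These lines were set against the same Neo pool, so the reference cancels in that difference. The knockdown lines lay closer together. Sir2KD2 minus Sir2KD1 was -0.50, with an interval of -0.92 to -0.08 that is not adjusted over all probes. Its limma adjusted p of 0.328 is given as a description, since the ratios of Sod3 entered the choice of genes. Their arrays did not overlap (2.13 to 2.41 against 2.65 to 2.89). The order from the highest was Sir2OE2, Sir2KD1, Sir2OE1 and Sir2KD2. The arrays of Sir2OE1 overlapped those of both knockdown lines, and because the kinds have different reference RNA an order across kinds is not an order of Sod3 levels. Sod3 had the highest plus-side ratio of all 23230 probes tested in Sir2OE2 and stood at rank 9, 9 and 8 in Sir2OE1, Sir2KD1 and Sir2KD2. Probes called on one side in all 4 lines made up 0.0775% of those tested (18 probes). Sod3 is among them, and nothing is read from this, since its ratios entered the choice of genes.

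By Euclidean distance over the 4 line ratios, among 16600 other singly named probes free of the shared percent, the gene most like Sod3 was Uchl1, a neuronal ubiquitin hydrolase, at a distance of 1.85. Uchl1 was at 2.45, 3.18, 1.26 and 1.81 in Sir2OE1, Sir2OE2, Sir2KD1 and Sir2KD2. Next were 3110039M20Rik (distance 2.87), Ifi44l (2.89), the cation channel Trpc6 (3.05) and the neuronal stathmin Stmn2 (3.10). Uchl1 was called in all 4 lines, as was 3110039M20Rik, whereas Trpc6 was at -0.04 in Sir2KD2. Ifi44l was called in Sir2OE2 alone, at 3.14, and Stmn2 was not called in Sir2OE1, at 0.47. Sod3 is made in many tissues by vascular smooth muscle and fibroblasts. Of 10 measured probes of fibroblast and smooth muscle markers, 0 passed the test in any line, and they lay between -0.70 and 0.62, with Lum the furthest from 0 (-0.70 in Sir2KD1). The share of all probes called was 1.06% to 3.59% per line, so 0 of 10 is near that share. Nothing is read from it on the source of Sod3. At an unadjusted p under 0.05, 1 of the 10 passed in Sir2OE1 and 0 in each other line. Of 7 probes of immune markers, Itgam alone passed, at 1.34 in Sir2KD1.

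Gpx2 differed between the knockdown lines, and its difference between the overexpressing lines missed the threshold. Its channel ratio in Sir2OE1 was 386% and 552% with the line in channel 2 and 38% with it in channel 1. In Sir2OE2 it was 124% and 134% on slides 1 and 2 and 75% and 48% on slides 3 and 4. In Sir2KD2 it was 311% and 668% on slides 1 and 2 and 20% on both slides 3 and 4. Sir2KD1 stood out, with 29% on the array with the line in channel 2 and 110% and 86% on the others. After adjustment for the channel, all arrays of Sir2OE1, Sir2OE2 and Sir2KD2 were on the plus side and all 3 of Sir2KD1 on the minus side.

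The genes were chosen with ratios of these lines known, so the p-values of Gpx2 are no independent test. The fit gave Gpx2 a log2 ratio of 1.92 ± 0.32 (SE, n = 3) in Sir2OE1, with limma adjusted p = 0.0169. In Sir2OE2 it was 0.55 ± 0.27 (SE, n = 4; limma adjusted p = 0.427), with a 95% interval of -0.04 to 1.14. In Sir2KD1 it was -0.70 ± 0.32 (SE, n = 3; limma adjusted p = 0.295), and in Sir2KD2 2.26 ± 0.27 (SE, n = 4; limma adjusted p = 0.00199). The knockdown lines differed from each other by 2.96 ± 0.41 (SE), or 7.77-fold, with limma adjusted p = 0.0118. The overexpressing lines were 1.37 apart, with Sir2OE2 minus Sir2OE1 at -1.37 and a 95% interval of -2.28 to -0.45, which missed the threshold over all probes (limma adjusted p = 0.319). In Sir2OE1 the call rested on each of its arrays: without slide 1, 2 or 3 the ratio was 1.93, 1.67 or 2.39 and the limma adjusted p 0.0957, 0.147 or 0.0778. In Sir2KD2, slide 2 lay at 3.15 where the other 3 arrays were between 1.92 and 2.04. With the fit restricted to the 7 arrays of the same kind, the call in Sir2KD2 had limma adjusted p = 0.0684 and the difference of the knockdown lines 0.183. Over the 11 settings tried besides leaving out arrays, the adjusted p ranged from 0.000226 to 0.995 for Sir2KD2 and from 0.00151 to 1.00 for the difference.

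The genes nearest to Gpx2 over the 4 ratios were 4933433N18Rik (distance 1.29), 2900019G14Rik (1.55), the prolactin family gene Prl2c2 (1.68), the cyclophilin Ppic (1.70) and Prl7d1 (1.75). Of these 5, Prl2c2 alone passed the test, in Sir2KD2 at 1.14. Sod3 and Gpx2 were both plus in Sir2KD2, at 2.28 and 2.26, and both in Sir2OE1, but in Sir2KD1 Sod3 was at 2.78 and Gpx2 at -0.70.

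**Figure D2:**
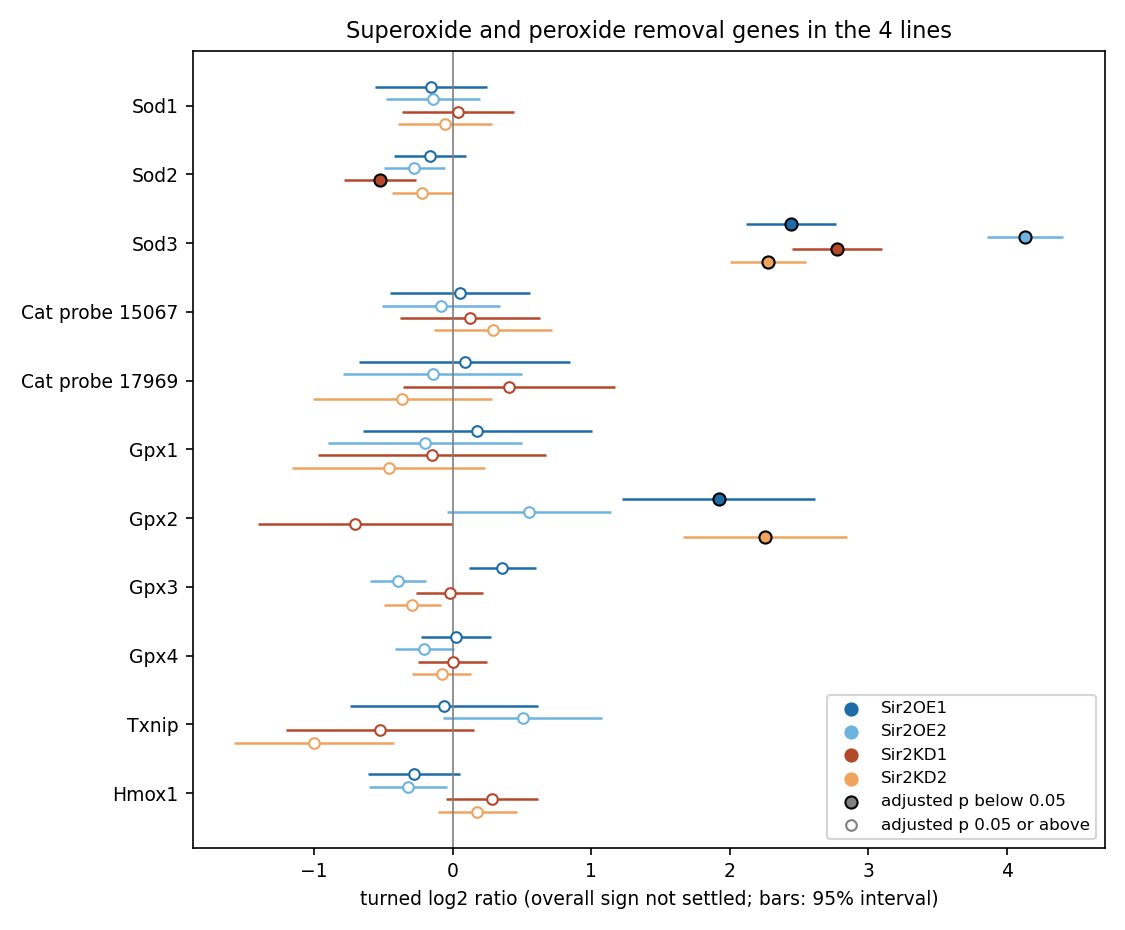
Turned log2 ratio of the 11 probes in the 4 lines, with bars for the 95% interval of the limma fit and filled points where the adjusted p was below 0.05. Sod3 lies between 2.28 and 4.13 in all lines and Gpx2 near 2 in Sir2OE1 and Sir2KD2, while the other 9 probes lie between -1.0 and 0.50.

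Counting all probes of these genes, 2 of 11 passed in Sir2OE1 (Sod3 and Gpx2), where 1.06% of all probes did. In Sir2OE2 1 of 11 passed (Sod3), against 2.81% of all probes, in Sir2KD1 2 of 11 (Sod3 plus, Sod2 minus), against 3.59%, and in Sir2KD2 2 of 11 (Sod3 and Gpx2), against 1.34%. Between the lines of a kind 1 of 11 differed for overexpression (Sod3, against 0.323% of all probes) and 1 of 11 for knockdown (Gpx2, against 0.689%). Sod3 supplied 5 of these 9 calls and was known beforehand, so nothing is read from the counts. By side, 0.469% of all probes were called plus and 0.594% minus in Sir2OE1, 1.43% and 1.38% in Sir2OE2, 1.6% and 1.98% in Sir2KD1 and 0.603% and 0.74% in Sir2KD2. For the differences these shares were 0.211% and 0.112% for overexpression and 0.422% and 0.267% for knockdown. The median ratio of the 11 probes was 0.05, -0.14, 0.00 and -0.08 in Sir2OE1, Sir2OE2, Sir2KD1 and Sir2KD2, where the medians of all probes were 0.00, 0.00, 0.02 and 0.00.

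The fitted ratios of the intracellular dismutases lay within 1.44-fold of control in every line. Those of Sod1 in the overexpressing lines include percents shared by many probes. Sod2 was on the minus side on all 14 arrays after adjustment for the channel. In the overexpression arrays its channel ratio was 61% to 76% with the line in channel 2. With the line in channel 1 it was 94%, 86% and 104%, so Sod2 did not clearly invert there. With the centring undone and no adjustment, the turned value was plus on slide 3 of Sir2OE1 (0.09) and of Sir2OE2 (0.22). That all overexpression arrays share a side thus rests on the centring and the channel term. Sir2OE1 had a Sod2 ratio of -0.17 ± 0.12 (SE, n = 3), Sir2OE2 one of -0.28 ± 0.10 (SE, n = 4), Sir2KD1 one of -0.52 ± 0.12 (SE, n = 3) and Sir2KD2 one of -0.22 ± 0.10 (SE, n = 4). The limma adjusted p was 0.778, 0.240, 0.0364 and 0.377, so it passed in Sir2KD1 alone, where the arrays were at -0.45, -0.62 and -0.50. That call is near the threshold. Leaving out any array of Sir2KD1, slide 1, 2 or 4 of Sir2KD2, slide 2 of Sir2OE1 or slide 1 or 2 of Sir2OE2 ended it, with ratios of -0.60 to -0.48 over all arrays left out in turn and limma adjusted p from 0.0414 to 0.139. Over the 11 other settings the limma adjusted p ran from 0.00527 to 0.643. The knockdown lines did not differ past the threshold (0.31 ± 0.15, SE, Sir2KD2 minus Sir2KD1; limma adjusted p = 0.485).

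Sod1 was marked in the overexpression arrays. On 5 of those 7 arrays its percents were 82, 95, 100, 107 and 105, the same as in the set of percents shared by many probes, and 329 probes were marked there. Its fitted values of -0.15 and -0.14 in Sir2OE1 and Sir2OE2 include those shared percents. In the knockdown arrays Sod1 was not marked, although its 80% on Sir2KD1 slide 3 and 84% on Sir2KD2 slide 2 equalled the shared percents there. Its ratios were in Sir2KD1 0.04 ± 0.18 (SE, n = 3) and in Sir2KD2 -0.05 ± 0.15 (SE, n = 4), with 95% intervals of -0.37 to 0.44 and -0.40 to 0.29. Of the 11 probes Sod1 alone was marked, which takes at least 5 arrays of a kind, and in the knockdown arrays, where 173 probes were marked, none of the 11 was. Other members came within 1 percentage point of the shared value on single arrays, such as Gpx4 at 95% on Sir2OE1 slide 2.

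Catalase and Gpx1 varied more between arrays than between lines. Cat probe 15067 had ratios of 0.05, -0.08, 0.13 and 0.29 in Sir2OE1, Sir2OE2, Sir2KD1 and Sir2KD2, with standard errors of 0.19 to 0.23. Cat probe 17969 had 0.09, -0.14, 0.41 and -0.36, with standard errors of 0.29 to 0.35, and its channel ratio in Sir2KD2 ran from 126% to 503%. The probes lay on opposite sides in Sir2KD2, and neither passed the test in any line (lowest limma adjusted p = 0.573 and 0.634). Gpx1, the abundant cytosolic peroxidase, was at 0.18, -0.20, -0.15 and -0.46. Its 3 arrays of Sir2KD1 were at 0.75, -1.13 and -0.06, and the 95% intervals of the 4 lines, from -1.16 at the lowest to 1.00 at the highest, leave changes of up to about that size undetected.

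Gpx3, the secreted plasma form, had small ratios with little spread. Its arrays in Sir2OE1 were at 0.20, 0.49 and 0.39, and those of Sir2OE2 at -0.37, -0.39, -0.43 and -0.38, so the overexpressing lines lay on opposite sides without overlap. The fit gave 0.36 ± 0.11 (SE, n = 3; limma adjusted p = 0.230) and -0.39 ± 0.09 (SE, n = 4; limma adjusted p = 0.0523). Their difference of -0.75 ± 0.14 (SE, Sir2OE2 minus Sir2OE1) had limma adjusted p = 0.0699 and thus missed the threshold over all probes. Both values were past it when the channel term was shared by the kinds, with limma adjusted p = 0.0228 and 0.0244, and the range over the 11 settings was 0.00921 to 0.799 and 0.00781 to 0.992. With no channel term the Sir2OE1 value passed as well, at 0.37 with limma adjusted p = 0.0495 (range 0.0495 to 0.846 over the 11 settings). Without Sir2OE1 slide 1 the Sir2OE2 value also passed, at adjusted p = 0.0486 by limma. In Sir2KD1 Gpx3 was at -0.02 and in Sir2KD2 at -0.29, minus on 4 of 4 arrays after adjustment (limma adjusted p = 0.189). With the centring undone and no adjustment, the turned value on Sir2KD2 slide 1 was plus (0.03), at a channel ratio of 102%. Gpx4, which reduces lipid peroxides in membranes, stayed near 0: its ratios were 0.02, -0.20, 0.00 and -0.08, and no array lay beyond -0.31 or 0.16.

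Txnip and Hmox1 had ratios on different sides in several lines, but the kinds of line have different reference RNA. For Txnip, Sir2OE1 had -0.06 ± 0.31 (SE, n = 3), Sir2OE2 0.50 ± 0.26 (SE, n = 4), Sir2KD1 -0.52 ± 0.31 (SE, n = 3) and Sir2KD2 -1.0 ± 0.26 (SE, n = 4). In Sir2KD2 its channel ratio was 87% and 46% with the line in channel 2 and 280% and 229% with it in channel 1, and all 4 arrays were on the minus side after adjustment. The limma adjusted p there was 0.108, and 0.0435 with no channel term (range 0.0435 to 0.864 over the 11 settings). In Sir2OE2 all 4 arrays were on the plus side after adjustment (limma adjusted p = 0.465). The Txnip channel ratio there was 92% on slides 1 and 2, with the line in channel 2, and 58% and 36% on slides 3 and 4. It thus did not invert, and with the centring undone and no adjustment the turned value was -0.12 on slides 1 and 2. That all 4 share a side rests on the centring and the channel term. After adjustment for the channel, Hmox1 was minus on all 7 overexpression arrays, with fitted ratios of -0.28 and -0.32 in Sir2OE1 and Sir2OE2. It was plus on all 7 knockdown arrays, with fitted ratios of 0.29 and 0.18 in Sir2KD1 and Sir2KD2. With the centring undone and no adjustment, the turned value on Sir2OE1 slide 2 was plus (0.04), at a channel ratio of 103%. None of the 4 fitted ratios passed the test, with limma adjusted p between 0.307 and 0.641, and the difference between the kinds was not tested.

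**Figure D3:**
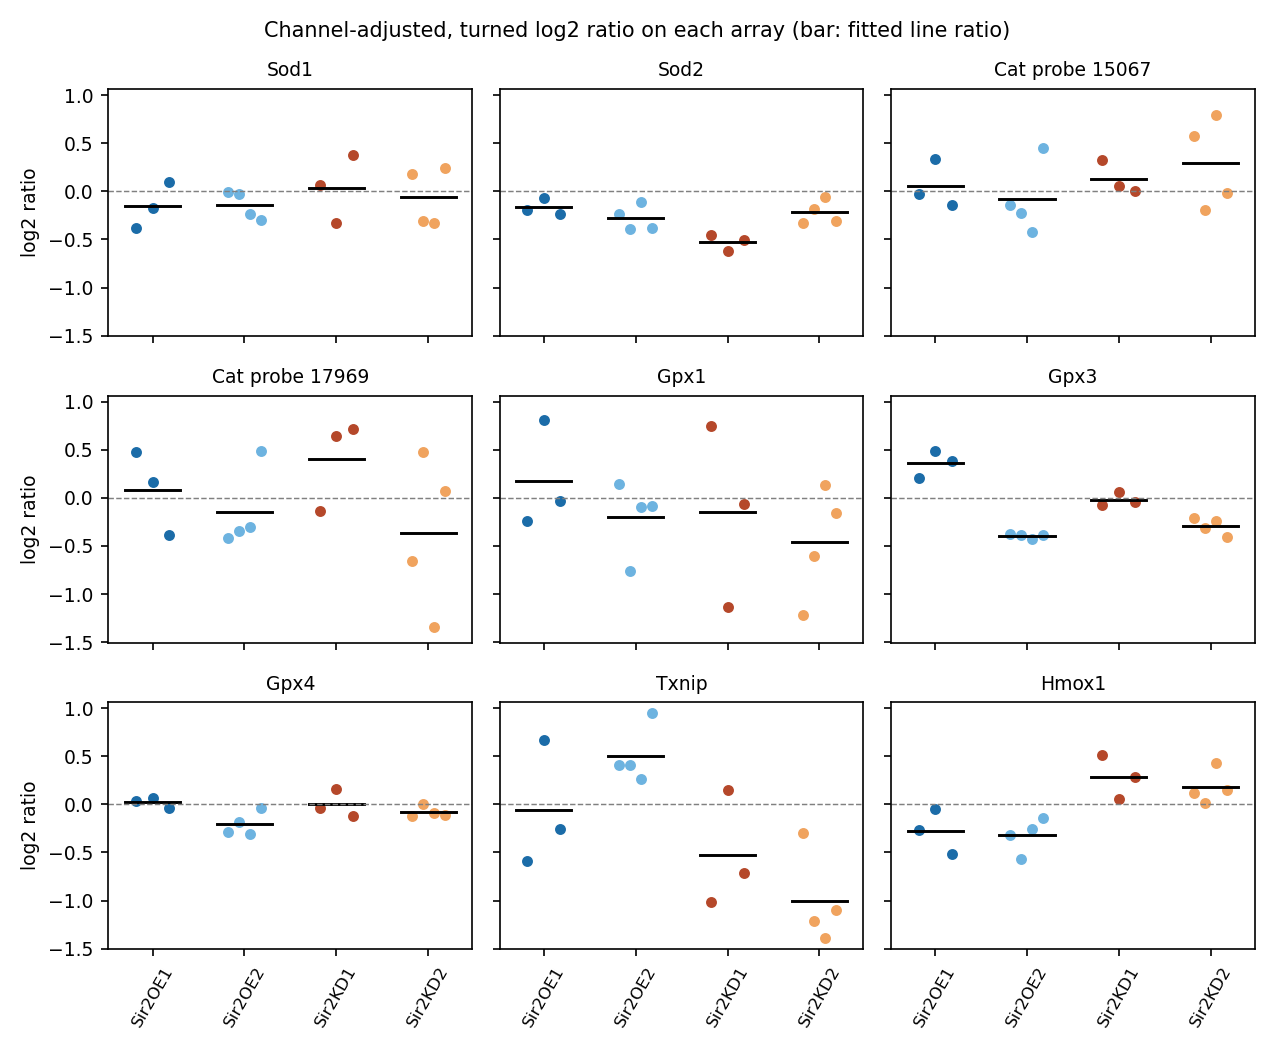
Turned log2 ratio on each array after removal of the channel term, for the 9 probes other than Sod3 and Gpx2, with a bar at the fitted ratio of each line. Gpx3 lies at 0.20 to 0.49 in Sir2OE1 and -0.43 to -0.37 in Sir2OE2, Hmox1 lies on opposite sides in the kinds, and the points of Cat probe 17969 and Gpx1 spread widely within lines.

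Calls in the wider set of redox genes are given beside the share of all probes called. That share was 1.06%, 2.81%, 3.59% and 1.34% in Sir2OE1, Sir2OE2, Sir2KD1 and Sir2KD2. In the peroxiredoxin and thioredoxin system, 14 probes of 16 listed genes, Glrx, a small thiol reductase that uses glutathione, was the one gene called. Its ratio was -0.67 ± 0.12 (SE, n = 3; limma adjusted p = 0.0255) in Sir2OE1 and -0.43 ± 0.10 (SE, n = 4; limma adjusted p = 0.0484) in Sir2OE2. In Sir2KD1 it was at 0.60 ± 0.12 (SE, n = 3; limma adjusted p = 0.0206) and in Sir2KD2 at 0.46 ± 0.10 (SE, n = 4; limma adjusted p = 0.0561). The list's medians lay between -0.08 and 0.07, and 2 of its 14 probes carried the shared percents in the overexpression arrays. Of 9 probes for glutathione supply and NADPH, 0 were called on the plus side in any line and 1 on the minus side, the cystine transporter Slc7a11 in Sir2KD1 at -0.69. The probe furthest from 0 in that list was Gclm, a subunit of the enzyme that starts glutathione synthesis, at 1.36 in Sir2KD1 (limma adjusted p = 0.0517). None of the 8 probes for other glutathione peroxidases and copper delivery was called by limma in any line, and 1, 2, 2 and 2 had an unadjusted p under 0.05. Gpx7 was furthest, at 1.04 and 0.94 in the overexpressing lines.

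Haem and iron handling, the pathway around Hmox1, had more calls over the 4 lines than any other of the 8 redox lists besides the described genes. The share of all probes called was 1.06%, 2.81%, 3.59% and 1.34% in Sir2OE1, Sir2OE2, Sir2KD1 and Sir2KD2. Of 11 probes for 10 genes, 1 was called on the minus side in Sir2OE1 and 3 in Sir2OE2, with 1 on the plus side there. In Sir2KD1 1 was called on the minus side and in Sir2KD2 1 on the plus side. Slc40a1, the iron exporter ferroportin, was at -1.66 ± 0.15 (SE, n = 4; limma adjusted p = 0.000171) in Sir2OE2 and -1.30 ± 0.17 (SE, n = 3; limma adjusted p = 0.00239) in Sir2KD1, but at -0.35 and -0.15 in Sir2OE1 and Sir2KD2. Tfrc, the transferrin receptor for iron uptake, had ratios on its probe 4912 of -0.58 ± 0.11 (SE, n = 3), -0.49 ± 0.09 (SE, n = 4) and 0.46 ± 0.09 (SE, n = 4) in Sir2OE1, Sir2OE2 and Sir2KD2, with limma adjusted p = 0.0355, 0.0162 and 0.0410. Its second probe was called in Sir2OE2 alone, at -0.64. Blvra, which reduces biliverdin made by haem oxygenase, was called in Sir2OE2 at 0.58.

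Of 15 probes for stress sensors and inducible genes, 2 were called, both minus in Sir2KD1: the transcription factor Foxo1 at -0.60 and the sestrin Sesn2 at -0.48. In Sir2KD1 1.98% of all probes were called minus. The shared percents were carried by 1 of the 15 in the arrays of each kind. Foxo3, at 0.68 in Sir2KD1, was furthest from 0 and not called. The 8 probes of oxidant sources, the 7 of Txnip relatives and glucose response genes and the 7 for selenoprotein synthesis had 0 calls in any line by limma, with 0 to 3 probes of each list at an unadjusted p under 0.05 per line. In these lists the furthest were Xdh, xanthine dehydrogenase, at -1.33 in Sir2KD2 (limma adjusted p = 0.0916), Arrdc4, an arrestin related to Txnip, at -0.84 in Sir2OE1 (limma adjusted p = 0.0731), and Selenow at 0.76 in Sir2OE2. Arrdc4 was on the minus side in all 4 lines, from -0.84 to -0.32.

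**Figure D4:**
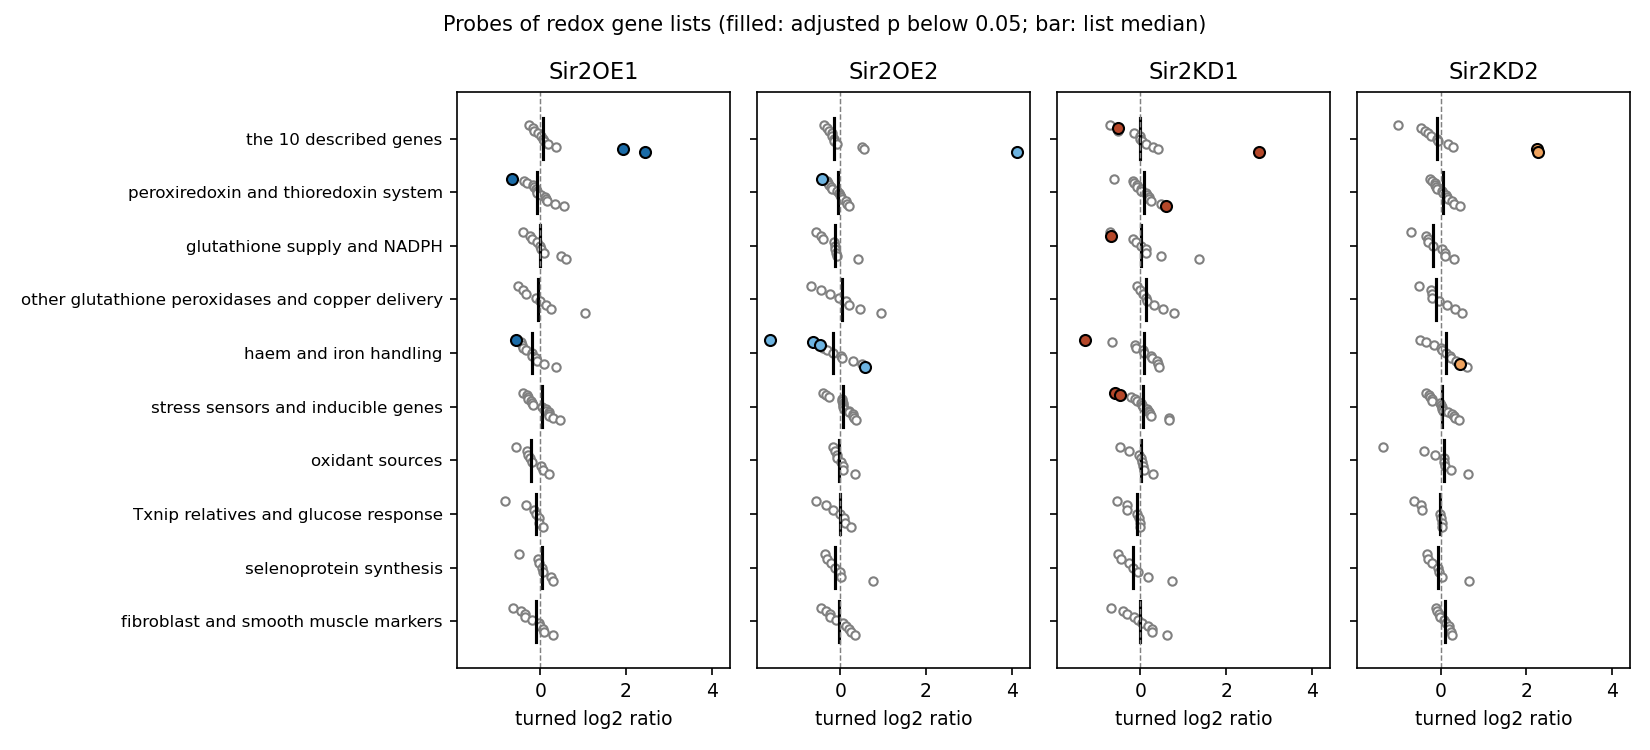
Turned log2 ratio of each probe of the 10 described genes, the 8 redox lists and the fibroblast and smooth muscle markers, by line, with filled points where the limma adjusted p was below 0.05 and a bar at the list's median. Among the lists plotted, outside the described genes, the called probe furthest from 0 is Slc40a1, at -1.66 in Sir2OE2.

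Other cell markers gave the following values in these RNAs, where 1.06%, 2.81%, 3.59% and 1.34% of all probes were called in Sir2OE1, Sir2OE2, Sir2KD1 and Sir2KD2. Of 9 measured beta-cell marker probes, Slc2a2, the glucose transporter of beta cells, was called minus in all 4 lines (-0.90, -1.5, -2.08 and -0.89), the lines in which Sod3 was plus. Pcsk1, a prohormone convertase, was called plus in 3 lines at 0.78, 0.78 and 0.76 and lay at 0.44 in Sir2KD1, and Neurod1 was called minus in Sir2OE2 and Sir2KD1, at -0.50 and -0.47. Pdx1 was called in Sir2KD1 alone, at -0.77. Ins2 (-0.44 to -0.07) and Nkx6-1 (0.09 to 0.42) lay on opposite sides and were not called in any line. In the overexpression arrays 4 of the 9 carried the shared percents, and in the knockdown arrays 2 did. Of 5 probes of other islet cells 0 were called by limma, with 2 at an unadjusted p under 0.05 in each knockdown line, and Sst was furthest at 0.54 in Sir2KD2. Of 7 exocrine and duct probes, Krt19 was called minus in both overexpressing lines (-0.58 and -0.69), Krt7 plus in both knockdown lines (0.93 and 1.29) and Cpb1 minus in Sir2KD1 (-1.44). What part any of these differences has in the Sod3 and Gpx2 ratios was not tested.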

How the data were processed

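The values used were the deposited log2 ratios of 14 two-colour arrays. The authors' background correction, normalization and software, and the channel on top of the ratio, were not given in the sources used here. Per probe and kind of line the deposited values summed to 0 over 6 of 7 arrays (all but Sir2OE1 slide 2 and Sir2KD1 slide 2), and with this centring removed 100% of complete probes had ratios that were whole percents (relative tolerance 1e-05). Probes within 1 percentage point of the most frequent set of percents on at least 5 arrays of a kind were marked as sharing it. Arrays of a line with opposite channels had a mean correlation of -0.281 as deposited and 0.182 with the centring undone, so the turn of sign is an assumption for probes that do not invert with the channel themselves.

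Symbols came from a platform annotation of 2007: 16885 probes had 1 symbol, 143 several and 6204 none listed, and 16205 symbols were matched to the GRCm38.p6 gene table by Entrez identifier. The turned ratios of the 14 arrays entered 1 linear model (lmFit and eBayes of limma 3.58.1, R 4.3.3) with 1 coefficient for each line and, because of the centring, a channel term for each kind. The 23230 probes measured at least 2 times in each line were tested against 0 and adjusted by Benjamini-Hochberg at 0.05. The script was tested on simulated data. Control RNA had no array of its own, so its spread is left out. No label says that slides came from separate cultures. The p-values therefore cover the spread among arrays only, possibly a technical one, and precision is limited by the small number of arrays.

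The members, lists and tests were chosen with earlier results of these data known. Every member was named. From the other lists, probes called in at least 2 lines were named, and, in lists with fewer than 3 such genes, the probe furthest from 0. Other called probes of small counts and members of the lists were named after their values were seen. For members with a called ratio of at least 1 on the log2 scale in 2 or more lines, the 5 nearest genes were named. Slide numbers recur in every line. Residuals of same-numbered arrays of different lines had correlations from -0.389 to 0.237, with 1 of 19 pairs above 0.1, so the numbers were not taken as pairs.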

Additional observations from a re-analysis of the deposited data

Results flagged for a closer look

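In Sir2OE2 the ratio of Sod3 exceeded that in Sir2OE1 by 1.69 on the log2 scale, a difference between lines set against the same reference. It is given as a description, since the ratios of Sod3 were known when the genes were chosen. The knockdown lines differed for Gpx2 by 2.96 (Sir2KD2 minus Sir2KD1), past the threshold over all probes. The genes were chosen with earlier results of these data known, so this is no independent test of Gpx2 either.

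Of 22 sets of 4 arrays examined for a single distant array, 2 held one, where chance gives about 1 in 20. Gpx2 on Sir2KD2 slide 2 was at 3.15, with the other 3 arrays between 1.92 and 2.04. Without that array the Gpx2 ratio in Sir2KD2 was still called. Cat probe 17969 on Sir2OE2 slide 4 was at 0.49, with the other 3 arrays between -0.41 and -0.31, and the probe was not called in that line.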

How the results depend on the processing

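Counts of called probes among the 11, in the order Sir2OE1, Sir2OE2, Sir2KD1, Sir2KD2, Sir2OE2 minus Sir2OE1 and Sir2KD2 minus Sir2KD1, were 2, 1, 2, 2, 1 and 1. Leaving out each array gave 1 to 2, 1 to 2, 1 to 2, 2 to 2, 1 to 1 and 1 to 1. With values read as line over control already (centring undone, no turn, no channel term) they were 0, 0, 0, 1, 0 and 0. Under that reading Sod3 was at -0.057 in Sir2OE2, -0.67 in Sir2KD1 and -0.70 for Sir2OE2 minus Sir2OE1, Gpx2 at -0.067 in Sir2KD2, Sod2 at 0.32 in Sir2KD1 and Cat probe 17969 at 1.26 in Sir2KD2, the one call. With the slide number as a replicate block, which left 0, 4, 153 and 6 calls among all probes in the lines where there had been 247, 653, 833 and 312, the counts were 0, 1, 1, 0, 0 and 0. Of the 14 arrays 1 correlated best with an array of its own number in another line. A single channel term, no channel term, or scaling of the arrays gave 2 in Sir2OE2 and 2 for Sir2OE2 minus Sir2OE1, through Gpx3. No channel term also gave 3 in Sir2OE1, where Gpx3 joined, and 3 in Sir2KD2, where Txnip joined. Sir2KD1 held 1 when arrays were scaled, when the centring was undone with the sign turned, and when only arrays of its kind were used. That last setting gave 1 in Sir2KD2 and 0 and 0 for the differences, with fewer arrays behind the spread. Median centring, complete probes, leaving out probes with the shared percents and robust eBayes left every count as it was. Depth and signal over background are unknown.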
